A study of Homo sapiens with 4 samples.

Results

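The comparison set the A549 line carrying an empty vector against the A549 line carrying a scramble hairpin (sc), the 2 control lines of a study of the membrane receptor DCBLD2, with 1 RNA sequencing library a side out of 4 in the series. A549 is an established human lung adenocarcinoma line. The empty vector is the control for DCBLD2 overexpression, whose backbone, pLV-EF1-MCS-IRES-Bsd, carries blasticidin resistance. The scramble hairpin is the control for shDCBLD2 and belongs to the hairpin vector, which carries puromycin resistance. All lines were made with lentivirus from a HEK293-derived packaging line and were selected for stable carriage of the vector, so the control lines differ in backbone, selection drug and hairpin together, and these cannot be told apart. The passages between the lines are not given in the sources used here. Whether a line was a pool or 1 clone is not given in the sources used here, and neither is the scramble sequence. Neither control carries a DCBLD2 construct. Genes were included when their mean over the 4 libraries was at least 1 CPM (counts per 1000000 counts of the library), which left 13964 of the 57905 genes listed. The question was which genes and functions differ between control lines that were made separately from the same cell line.

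Lentiviral vectors integrate at many places in the genome, and drug selection then keeps the cells that took up the vector, so a stable line descends from the part of the parental culture that survived. Tumour cell lines hold subpopulations that differ in the genes of differentiation they keep on. A549 comes from the distal lung but also transcribes genes known from gut, liver and airway secretory cells, among them mucins, fibrinogen chains and CEACAM cell surface glycoproteins. Metallothioneins, small proteins that bind zinc and copper, and the pro-apoptotic and stress-response targets of p53 and ATF4 are genes known to follow the state of a culture.

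Promoter sequences are shown for 4 genes at the centre of the comparison. CEACAM6 and CEACAM5 were among the most unequal genes in the direction of sc, FGB stands for the fibrinogen cluster, and MT2A was the most highly counted gene called higher with the empty vector. Each sequence is the RefSeq window from 250 bases before to 50 bases after the start of the gene on GRCh38.p14, written 5′ to 3′ on the strand of the gene. Capitals mark matches, on either strand, to TATAAA (the TATA box), GTTAAT (letters known from promoters of liver genes) or TGCNCNC. The last is a loose form of the core of the metal response element, so its shares count more than that core. Over all 27305 promoters, TATAAA was found in 11.95%, GTTAAT in 6.89% and TGCNCNC in 55.2%. The CEACAM6 window held TATAAA at −139 from the start, the FGB window GTTAAT at −51, and the MT2A window TATAAA at −29 with 8 matches of TGCNCNC. The CEACAM5 window held none of these letters.
CEACAM6, chr19:41755280-41755579, + strand: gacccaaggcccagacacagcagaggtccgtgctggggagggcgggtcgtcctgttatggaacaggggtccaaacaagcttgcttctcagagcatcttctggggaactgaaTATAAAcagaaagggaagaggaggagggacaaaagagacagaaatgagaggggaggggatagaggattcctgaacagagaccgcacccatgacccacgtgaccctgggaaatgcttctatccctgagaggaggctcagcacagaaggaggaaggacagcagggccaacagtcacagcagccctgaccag
CEACAM5, chr19:41708376-41708675, + strand: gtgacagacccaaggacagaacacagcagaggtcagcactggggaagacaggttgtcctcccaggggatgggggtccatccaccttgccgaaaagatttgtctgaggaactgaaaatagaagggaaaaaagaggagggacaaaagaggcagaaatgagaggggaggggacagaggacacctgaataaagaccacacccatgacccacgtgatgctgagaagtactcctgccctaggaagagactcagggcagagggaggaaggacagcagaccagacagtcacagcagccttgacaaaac
FGB, chr4:154562730-154563029, + strand: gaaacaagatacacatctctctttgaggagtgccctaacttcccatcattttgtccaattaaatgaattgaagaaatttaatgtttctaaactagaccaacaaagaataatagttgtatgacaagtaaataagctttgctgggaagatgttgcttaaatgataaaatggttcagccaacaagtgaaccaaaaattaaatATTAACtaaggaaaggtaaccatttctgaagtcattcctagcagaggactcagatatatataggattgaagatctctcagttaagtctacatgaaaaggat
MT2A, chr16:56608334-56608633, + strand: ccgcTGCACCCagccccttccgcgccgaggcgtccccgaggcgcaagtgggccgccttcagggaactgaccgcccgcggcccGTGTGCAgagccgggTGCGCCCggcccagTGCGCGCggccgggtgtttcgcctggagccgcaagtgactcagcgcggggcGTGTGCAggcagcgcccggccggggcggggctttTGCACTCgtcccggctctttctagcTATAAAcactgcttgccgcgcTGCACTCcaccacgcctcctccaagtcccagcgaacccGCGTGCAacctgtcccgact

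The libraries held 18718562 counts with the empty vector, 19104052 in sc, 16601633 in the library labelled DCBLD2 overexpression (labelled OE from here) and 21537283 in shDCBLD2. The FPKM of DCBLD2 (counts scaled by exonic length and library total) was 37.8 with the empty vector, 45.8 in sc, 17.5 in shDCBLD2 and 21.4 in the library labelled OE, which goes against that label. Where a pair of values for the other libraries follows below, the library labelled OE comes first and shDCBLD2 second. CDKN2A, a tumour suppressor known to be deleted in A549, was at 0 counts in both controls and in shDCBLD2 and at 2104 in the library labelled OE. Both controls expressed all 20 genes chosen as abundant in A549, which summed to 36417 CPM in the empty vector library and to 43809 CPM in the sc library. Of 10 fibroblast-like markers, 4 passed the filter and 4 had 3 counts or fewer in both controls, with sums of 44.6 and 39.1 CPM. Of 10 blood-like markers 7 had 3 counts or fewer in both controls, with sums of 16.7 and 10.2 CPM, and of 9 endothelial-like markers 6 did, with sums of 135 and 79.5 CPM. The 20 HEK293-like markers, for the cells that made the virus, summed to 1222 CPM in the empty vector library and to 1282 CPM in the sc library. Most of both sums came from UCHL1, which is also among the genes chosen as abundant in A549. Of the 20, 4 had 3 counts or fewer in both controls, CDKN2A among them. The part of these markers in the results below was not tested.

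The 2 control libraries were close for most genes. The ratio was within 1.5-fold for 84.0% of the 13964 genes, and the median log2 ratio of the empty vector to sc was −0.07. Genes were called where the ratio, computed with 2 counts added to each side in proportion to depth, was at least 2-fold and its exact 95% Clopper-Pearson interval excluded no change. By this rule 252 genes (1.8%) were higher and 304 genes (2.18%) were lower with the empty vector. The balance depended on the scaling: with TMM factors, which moved the median of all genes to −0.01, 306 were higher and 265 lower. Since each line gave 1 library, the intervals cover counting error only, PCR copies are counted as separate molecules, and no p-value can be given. The interval excluded no change for 54.7% of all genes, most of them by less than 2-fold. Past 4-fold, 9 genes were higher and 46 lower with the empty vector, so the tail on the sc side was the longer one. Called genes were weakly expressed, with 69.0% of the higher and 66.1% of the lower genes under a mean of 5 CPM, against 22.4% of all genes. In the lowest of 5 groups of genes by mean CPM, 5.94% were called higher and 6.62% lower. The list counts below stand beside these shares and those of all genes. A weak gene could pass the filter through 1 library where it was high, a control among them, which can raise the share of calls among weak genes.

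**Figure D1:**
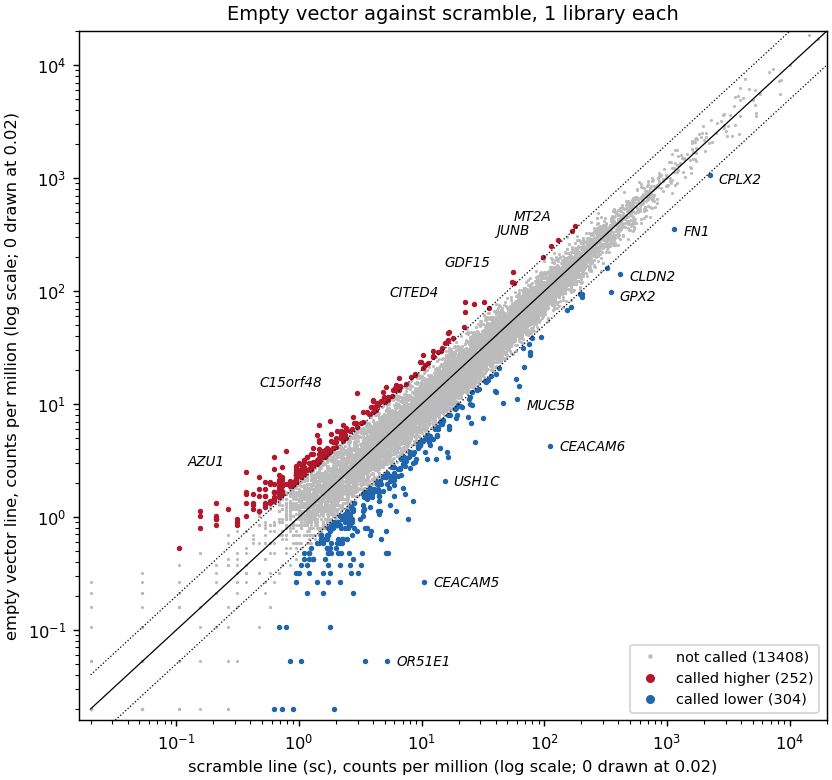
CPM of each of the 13964 genes in sc (x axis) and with the empty vector (y axis), both on log scales, with genes at 0 drawn at 0.02. The solid line marks equal levels and the dotted lines a 2-fold difference; 304 genes (blue) lie below and 252 (red) above, and the blue points reach farther from the line, with CEACAM6, CEACAM5 and OR51E1 the farthest labelled.

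The carcinoembryonic antigen family had the lowest median log2 ratio of the 68 lists, −2.86 over 5 genes past the filter, of which 3 were called lower. CEACAM6, a glycosylphosphatidylinositol-anchored adhesion molecule of epithelial cells, had 80 counts with the empty vector and 2138 in sc, or 4.27 and 112 CPM. The library labelled OE had 96.3 CPM and shDCBLD2 45.6 CPM. The empty vector library therefore stood alone at the low end, at a log2 ratio to sc of −4.68 (95% counting interval −5.05 to −4.39). CEACAM5, the carcinoembryonic antigen itself, had 5 counts with the empty vector and 201 in sc, with 302 and 41 in the libraries labelled DCBLD2 overexpression and shDCBLD2. Its log2 ratio was −4.83 (−6.94 to −4.05). CEACAM7, known from colon epithelium, had 1 count against 20, a ratio of 19.6-fold with a counting interval from 3.13 to 812. These 3 genes are neighbours and span bases 42177235 to 42276113 of chromosome 19 by the deposited positions, whose genome build is not given in the files. The other members past the filter were near equality: CEACAM19 had 272 counts against 378 and CEACAM1 37 against 36. The remaining 7 of the 12 family members listed did not pass the filter. The family was picked as a list after its values had been seen, and its members are near-identical in places, so reads may be split between them.

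Genes of the intestinal brush border and of enterocytes were lower with the empty vector in 15 of the 20 past the filter, out of 35 listed, and none was called higher. This list was also picked after values had been seen, so its count is a description. The filter used the mean of all 4 libraries, which can raise the share of lower calls among weak members. ANKS4B and DDC, with means of 1.11 and 1.08 CPM, passed it through their counts in sc and in the library labelled OE. Villin (VIL1), which bundles actin in microvilli, had 9 counts with the empty vector and 98 in sc, against 35 in the library labelled OE and 6 in shDCBLD2. Harmonin (USH1C), which links the protocadherins at the tips of microvilli, had 39 counts against 294, with 568 and 30 in the other libraries. Its partner ANKS4B had 0 counts against 37, at least 12.1-fold lower when set against a floor of 3 counts, with 40 and 2 in the other libraries. For these 3 genes the empty vector and shDCBLD2 libraries were low and the sc library and the library labelled OE were high. MYO1A, the brush border myosin, had 8 counts against 53, and EPS8L3, an actin regulator, had 14 against 74. The liver-intestine cadherin CDH17 had 18 counts against 149, a log2 ratio of −2.89 (−3.81 to −2.31), with 266 and 23 in the other libraries. The transmembrane proteins TM4SF4 and TM4SF20 stood at 14.4 against 61.8 CPM and 16.7 against 58.4 CPM.

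Digestive and metabolic enzymes of the same list followed. The brush border glucosidase MGAM had 9 counts against 62. DDC, which decarboxylates aromatic amino acids, had 1 count with the empty vector, 66 in sc, 13 in the library labelled OE and 1 in shDCBLD2, a ratio of 64.7-fold with a counting interval from 11.2 to 2593. The cationic amino acid carrier SLC7A7 had 10.2 CPM against 46.2, annexin ANXA13 3.79 against 16.2, and HGD of tyrosine breakdown 6.78 against 25.4. CLDN2, the pore-forming claudin of leaky epithelia, was the most abundant of them, with 142 CPM with the empty vector, 417 in sc, 485 in the library labelled OE and 134 in shDCBLD2. Its log2 ratio was −1.55 (−1.62 to −1.49). The uncalled members were PLS1, CDHR2, EZR, CDX2 and ANPEP. Ezrin (EZR), which also anchors membranes in other cells, had 397 against 497 CPM, and CDX2, the intestinal master regulator, had only 21 counts against 16 in the controls and 247 in the library labelled OE.

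Among 19 transcription factors of endoderm and lung past the filter, 6 were lower and none was higher. HNF4A, a nuclear receptor of liver and gut epithelium, had 512 counts with the empty vector, 1467 in sc, 967 in the library labelled OE and 655 in shDCBLD2, with a log2 ratio of −1.49 (−1.64 to −1.34). It was lowest with the empty vector and next lowest in shDCBLD2. The basal cell factor TP63 had 43 counts against 122, the liver factor ONECUT2 42 against 114, the epithelial ETS factor EHF 53 against 140 and ID4 62 against 142. Other factors of the list were not called: FOXA2 stood at 71.4 against 57.6 CPM and ELF3 at 244 against 170. The median log2 ratio of the 19 was −0.13, close to that of all genes. PPARGC1A, a coactivator of mitochondrial and gluconeogenic genes, had 9 counts against 102, with 23 and 22 in the other libraries. The sc library was the one high library, and PPARGC1A passed the filter through it.

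Calls among secreted products of airway type went in 1 direction. Of 11 mucins and airway secretory genes past the filter, out of 30 listed, 6 were lower and none higher, and the median log2 ratio was −1.18. MUC5B, a gel-forming mucin of the airways, had 11.1 CPM with the empty vector, 60.0 in sc, 212 in the library labelled OE and 5.11 in shDCBLD2. MUC5AC, the other gel-forming airway mucin, had 68.6, 152, 377 and 34.1 CPM in the same order. The neighbouring genes kept the same order of libraries, with log2 ratios of −2.43 (−2.66 to −2.23) and −1.14 (−1.24 to −1.05) between the controls. The membrane mucins MUC13 and MUC16 had 92 against 237 and 4 against 22 counts. The filter used the mean of all 4 libraries, which can raise the share of lower calls among weak members. The 30 genes listed summed to 157 CPM with the empty vector, 357 in sc, 870 in the library labelled OE and 81.4 in shDCBLD2. MUC16, at 1.15 CPM in sc and 4.28 in the library labelled OE, passed the filter through the library labelled OE. The antiproteases SLPI and PI3, neighbours on chromosome 20, had 92 against 216 and 2 against 13 counts, the second a ratio of 6.37-fold with a counting interval from 1.44 to 58.1. AGR2, a disulfide isomerase needed for mucin folding, had 1065 against 2062 counts, a 1.9-fold difference under the threshold.

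Fibrinogen and related plasma proteins made 5 lower calls among 26 complement and coagulation genes past the filter, with none higher and a list median of −0.25. FGB, the beta chain, had 61 counts with the empty vector, 252 in sc, 791 in the library labelled OE and 55 in shDCBLD2. FGG and FGA, the gamma and alpha chains, had 58 against 168 and 119 against 317 counts. The 3 chain genes are adjacent on chromosome 4 from 155484108 to 155534119, and their log2 ratios were −1.98, −1.47 and −1.37. The fibrinogen-like gene FGL1 had 79 against 177 counts. Complement C3 was not called, with 113 CPM against 149, and C1S stood at 101 against 98.9 CPM. In the list of liver and gut type secreted proteins 4 of 9 genes past the filter were lower, but FGB and CDH17 among them were already counted in the lists above. Of the others, SERPINA1, the plasma antitrypsin, had 4 counts against 30 and the retinol carrier RBP4 67 against 161. SERPINA1, at 1.57 CPM in sc and 3.73 in the library labelled OE, passed the filter through the library labelled OE. APOC1, an apolipoprotein, was the one member called higher, with 38.7 against 18.1 CPM.

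Neural and neuroendocrine genes were lower in 6 of 20 past the filter and higher in none, with a median log2 ratio of −0.50. Synaptophysin (SYP), a membrane protein of secretory and synaptic vesicles, had 76 counts with the empty vector, 270 in sc, 169 in the library labelled OE and 111 in shDCBLD2. The granins CHGB, CHGA and SCG2, which fill dense-core granules, had 61 against 172, 15 against 42 and 8 against 23 counts. L1CAM, an adhesion molecule, had 87 against 219, and NTS, which encodes neurotensin, 183 against 378. UCHL1, a neuronal deubiquitinase that A549 expresses strongly, was level at 865 against 823 CPM. Complexin CPLX2, a regulator of vesicle fusion, was the most highly counted of all 304 lower genes, with 1070 CPM with the empty vector, 2233 in sc, 1650 in the library labelled OE and 865 in shDCBLD2.

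Receptors and channels were among the most unequal genes. OR51E1, an odorant receptor also known from neuroendocrine and prostate tissue, had 1 count with the empty vector, 100 in sc, 7 in the library labelled OE and 5 in shDCBLD2. Its signal was nearly all from sc, and it passed the filter through sc. Its log2 ratio was −5.07 (−11.93 to −4.10). Of 34 potassium channel genes past the filter 6 were lower (17.6%, against 2.18% of all genes) and 1 was higher (2.94%, against 1.8%). The neighbouring inward rectifiers KCNJ16 and KCNJ2 had 7 against 41 and 9 against 42 counts. KCNJ6 had 61 against 212, with 34 and 467 in the other libraries, the reverse of the order seen for the brush border genes. IL1R2, the decoy receptor of interleukin-1, had 2 counts against 34, a ratio with a log2 interval from −7.16 to −2.09. RNF43, a ubiquitin ligase that removes Wnt receptors, had 87 against 520 counts, with 459 and 66 in the other libraries, and LGR6, a receptor of the same pathway, had 26 against 85. Of the 36 Wnt pathway genes past the filter, these 2 were the lower ones (5.56%) and WNT11, a ligand, with 69 against 33, the higher one (2.78%). Wnt genes outside that list, picked after their values had been seen, were also called: the ligand WNT4 was lower, with 13 against 33 counts, and FRAT1 and FRAT2, which bind GSK3, were higher, with 192 against 82 and 328 against 157.

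Enzymes of detoxification showed a few lower genes in an otherwise level group. Of 36 NRF2 and glutathione genes, known to be highly expressed in A549, 2 were lower and none higher, and the median was −0.18. GPX2, a glutathione peroxidase of gut epithelium, had 97.4 CPM with the empty vector, 348 in sc, 385 in the library labelled OE and 102 in shDCBLD2, with a log2 ratio of −1.84 (−1.91 to −1.76). The fatty acid hydroxylase CYP4F11 had 546 against 1456 counts and its relative CYP4F3 218 against 473. NQO1, a standard NRF2 target, was level at 2070 against 2189 CPM. UGT1A6, UGT1A7 and UGT1A8, the 3 UDP-glucuronosyltransferases past the filter, had 13 against 72, 81 against 184 and 15 against 66 counts, and overlap on chromosome 2 between 234526291 and 234681956. They share all exons but the first, so their counts are not independent. The same holds for 6 of the protocadherin alpha genes, which were lower as a run on chromosome 5 from 140186659 to 140391936 and share their last exons. In that run PCDHA12 had 40 against 113 counts and PCDHA5 6 against 34.

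Extracellular matrix and mesenchymal genes were mixed. Fibronectin (FN1), the matrix glycoprotein bound by integrins, had 355 CPM with the empty vector, 1147 in sc, 2329 in the library labelled OE and 713 in shDCBLD2. The empty vector library was the lowest, with a log2 ratio of −1.69 (−1.73 to −1.65). COL1A2, a chain of type I collagen, had 0 counts against 17, at least 5.55-fold lower against 3 counts, with 67 and 1 in the other libraries. At 0.89 CPM in sc, COL1A2 passed the filter through the library labelled OE. The partner chain COL1A1 was level at 652 against 639. SNAI2, a repressor of epithelial genes, had 32 against 83 counts, with 58 and 193 in the other libraries, and the hyaluronan-binding proteoglycan VCAN had 1646 against 3858. THY1, a surface glycoprotein, was higher, with 160 against 64 counts. Vimentin (VIM) stood at 1362 against 1264 CPM and N-cadherin (CDH2) at 50.3 against 63.3. Of 26 mesenchymal genes past the filter 1 was higher (THY1) and 2 lower (FN1 and SNAI2), and of 29 epithelial junction and identity genes CLDN2 alone was called. ADAMTS9, a protease that cleaves versican, had 145 against 459 counts, and the activin chain INHBA 29 against 73, with 12 and 279 in the other libraries.

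**Figure D2:**
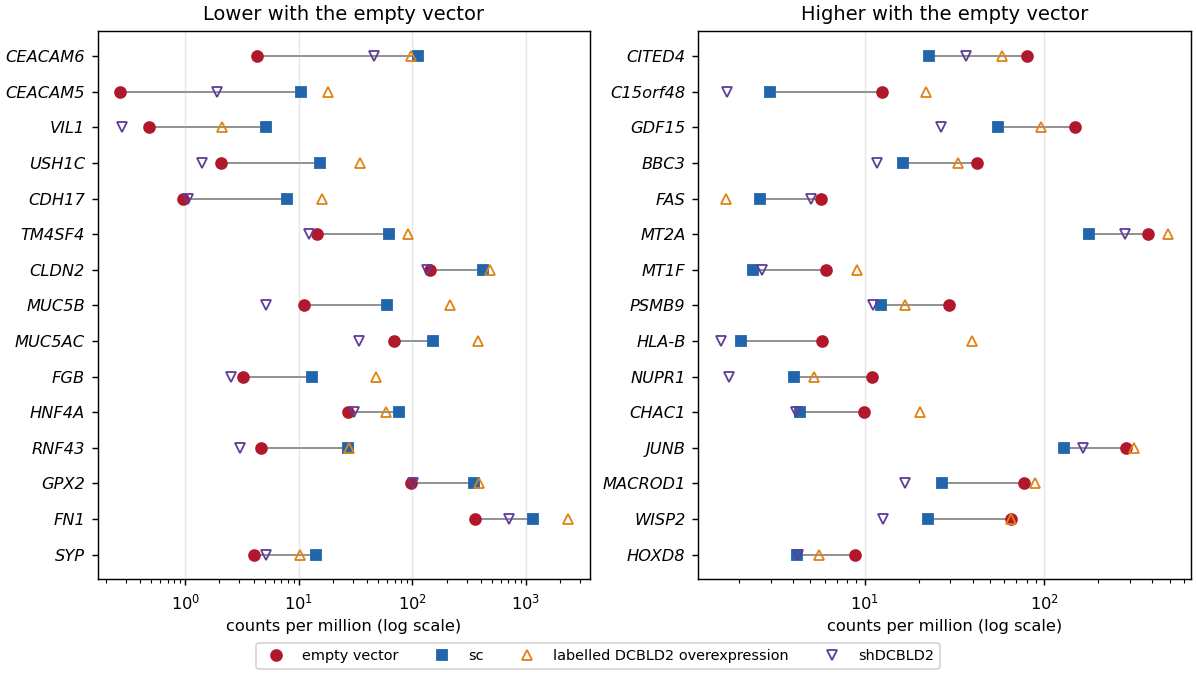
CPM (log scale) of 15 genes called lower (left) and 15 called higher (right) with the empty vector; each symbol is 1 library, and the grey line joins the 2 controls. On the left the shDCBLD2 library (open purple triangles) lies nearer the empty vector than sc for 12 of the genes, all but CEACAM6, CEACAM5 and FN1, and on the right the library labelled OE (open orange triangles) lies above sc for 14 of the genes, all but FAS. The genes shown were picked with their values in view. Of all 304 lower genes shDCBLD2 was nearer the empty vector for 184 (60.5%), against 36.4% of all genes below sc. Of all 252 higher genes the library labelled OE was nearer the empty vector for 199 (79.0%), against 60.8% of all genes above sc.

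The genes higher with the empty vector had smaller ratios. CITED4, a coactivator that binds CBP and p300, had 1496 counts with the empty vector, 434 in sc, 960 in the library labelled OE and 791 in shDCBLD2, with a log2 ratio of 1.81 (1.66 to 1.97). C15orf48, a small mitochondrial protein induced in inflammation, had 235 against 57 counts, with 364 and 37 in the other libraries, a log2 ratio of 2.03 (1.65 to 2.52). For CITED4 the empty vector library was the highest of the 4 and sc the lowest, whereas C15orf48 was highest in the library labelled OE. MACROD1, an ADP-ribose hydrolase, had 77.4 CPM against 26.9, with 89.0 and 16.8 in the other libraries. WISP2, a secreted protein of the CCN family, had 65.3 CPM against 22.6, with 65.4 and 12.6 in the other libraries. AZU1, an antimicrobial protein of neutrophil granules, had 47 against 7 counts, and its neighbour on chromosome 19, LPPR3, 807 against 316. The guanine nucleotide exchange factor RASGRP2 had 72 against 15 counts, PTPRN2 of dense-core vesicles 133 against 34, and PIK3IP1, an inhibitor of PI3 kinase, 99 against 27. DBP, a clock-controlled transcription factor, had 509 against 196.

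A few genes of the stress and p53 responses were among the higher ones, while most were not called. Of 28 p53 targets, all past the filter, 3 were higher (10.7%, against 1.8% of all genes) and none lower. GDF15, a secreted stress cytokine of the TGF-beta family, had 148 CPM with the empty vector, 55.3 in sc, 96.3 in the library labelled OE and 26.7 in shDCBLD2, with a log2 ratio of 1.41 (1.31 to 1.52). BBC3 (PUMA), a pro-apoptotic BH3 protein, had 42.2 against 16.4 CPM, and the death receptor FAS 107 against 50 counts. All 3 genes were highest with the empty vector, although FAS in shDCBLD2 was close, at 5.01 CPM against 5.72. The best known targets were closer to equality, with CDKN1A at 161 against 131 CPM and MDM2 at 30.0 against 38.2 CPM, and the median of the list was 0.17. Among 26 ATF4 targets and serine synthesis genes 2 were higher (7.69%). These were the stress factor NUPR1 with 205 against 77 counts and CHAC1, which degrades glutathione, with 185 against 84. ATF4 itself stood at 324 against 287 CPM and the list median was 0.17. JUNB, a subunit of AP-1, was higher with 5312 against 2453 counts, and EGR1, another immediate-early gene, was lower with 10 against 32.

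Metallothionein transcripts were higher in 3 of the 4 genes past the filter, out of 10 listed, with a median log2 ratio of 1.10. MT2A, the most abundant, had 376 CPM with the empty vector, 177 in sc, 489 in the library labelled OE and 280 in shDCBLD2, so sc was the low library of the 4. Its log2 ratio was 1.09 (1.03 to 1.15). MT1F had 114 against 46 counts and MT1A 153 against 71. MT1X was at 27.0 against 17.7 CPM, a 1.52-fold difference that was not called. The 3 called genes lie on chromosome 16 from 56642111 to 56694610, and close paralogs among them may exchange reads.

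Antigen presentation and innate immune genes gave few calls. Of 16 MHC class I and antigen processing genes 2 were higher (12.5%, against 1.8% of all genes), none was lower and the median log2 ratio was 0.33. HLA-B had 108 counts with the empty vector, 39 in sc, 656 in the library labelled OE and 34 in shDCBLD2, and reads of HLA genes may be lost or shared between alleles and paralogs. PSMB9, a subunit of the immunoproteasome, had 551 against 235 counts, with 278 and 241 in the other libraries, so it was high with the empty vector alone. B2M, the light chain of class I molecules, stood at 247 against 201 CPM. Of 29 NF-kB targets, cytokines and chemokines, the chemokines CCL5 (30 against 7 counts) and CCL26 (50 against 24) were higher. TNFSF15 (21 against 64) and PTGS2, the inducible cyclooxygenase (348 against 773), were lower. That is 6.9% in each direction. In a list of sensors of nucleic acids, restriction factors and drug-handling genes, written for the viral transduction and the drugs, 1 of 22 was called, TMEM173 (STING) with 39 counts against 13. The sensor DDX58 (RIG-I) and the kinase EIF2AK2 (PKR) had 59 against 110 and 798 against 1385 counts, both short of the threshold. Of 30 interferon-stimulated genes 1 was higher (HERC5, 128 against 56) and 1 lower (MX1, 16 against 37).

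Developmental genes included 3 of 28 HOX genes called higher, with none of the 28 lower and a median log2 ratio of 0.25, which turned to −0.17 when genes that overlap another gene were left out. HOXD8 had 166 counts with the empty vector, 80 in sc, 93 in the library labelled OE and 92 in shDCBLD2. HOXB2 had 58 against 26 counts and HOXD10 30 against 13. HOXA6, which the list did not hold and which was picked after its values had been seen, was called lower, with 5 against 41 counts and a log2 ratio of −2.59 (−4.70 to −1.67). GREM1 and CHRD, secreted antagonists of BMP ligands, had 86 against 28 and 21 against 3 counts, the second a log2 ratio of 2.22 with an interval from 1.09 to 5.23. PAX2, a kidney factor, had 35 against 14. CHRD was highest in the library labelled OE, at 62 counts.

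Of the 8 largest losses and 8 largest gains in CPM, CPLX2 (above) was the one gene past 2-fold. KRT8 and KRT18, the keratin pair of simple epithelia, had 5516 against 8406 and 3756 against 5292 CPM. The aldehyde dehydrogenase ALDH3A1 had 2478 against 3865 CPM, AKR1B10 2370 against 3376 and the actin crosslinker FLNA 3547 against 5277. On the other side, MT-CO1, a mitochondrially encoded subunit of cytochrome oxidase, had 18557 against 14288 CPM, and IGFBP4, a secreted binder of insulin-like growth factors, 7564 against 4306 CPM. The ferritin light chain FTL had 8713 against 6845 CPM. Genes with ribosomal protein symbols leaned the same way, with a median log2 ratio of 0.35 over 108 genes and 101 of them above 0, although 1 alone was called. The symbol pattern matched 703 of the genes listed, so pseudogenes that share reads with their parent genes may be among the 108. Of 60 nuclear-encoded respiratory chain subunits 53 were above 0, with a median of 0.17 and no call.

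Of the 68 lists, 48 held at least 1 called gene and 20 held none. In the second group were cholesterol synthesis (25 genes, median −0.02), the cell cycle (43 genes, −0.16), YAP targets (24 genes, −0.08), endoplasmic reticulum folding (20 genes, −0.01), heat shock proteins (13 genes, −0.12) and keratins (10 genes, −0.03). The median was within 0.2 of 0 for 46 lists. The lists with the lowest medians were CEACAM genes (−2.86) and brush border genes (−2.13). Both were picked after values had been seen, so their rank follows from that choice. Next were UDP-glucuronosyltransferases (−1.97, 3 genes), mucins (−1.18) and protocadherins (−0.82, 16 genes), and metallothioneins had the highest median (1.10).

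**Figure D3:**
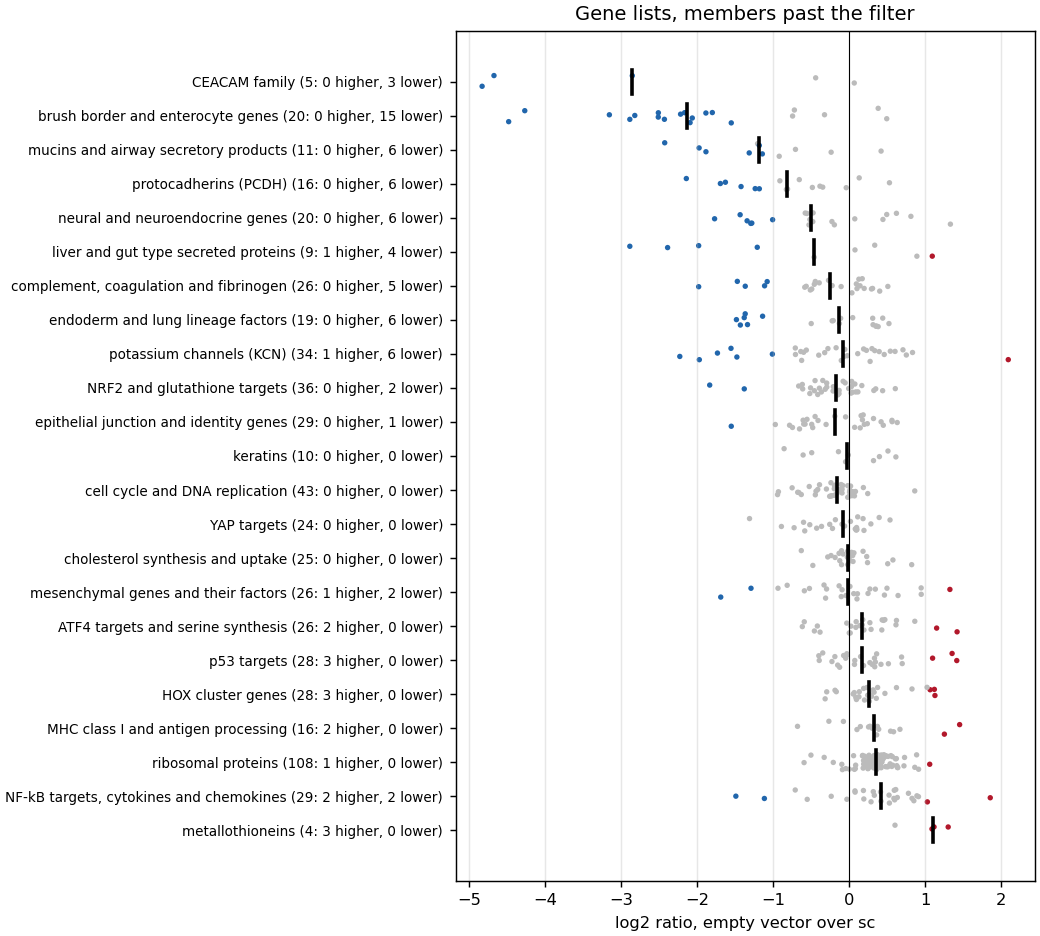
Log2 ratio of the empty vector to sc (x axis) for the genes of 23 lists past the filter; each point is 1 gene (red called higher, blue called lower, grey not called, spread vertically for legibility) and black bars are medians. The blue points gather in the CEACAM, brush border, mucin, protocadherin and neuroendocrine lists, while lists such as cholesterol synthesis and the cell cycle are centred near 0. The CEACAM and brush border lists were picked after values had been seen.

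The levels of the called genes in the other libraries were described through the pair that shares no library with the controls. By their labels, the first of these has the backbone of the empty vector and the second the hairpin vector, as sc does, but the DCBLD2 level of the first goes against its label. By the same rule 14.5% of all 13964 genes were higher and 14.1% lower in the library labelled OE than in shDCBLD2. Of the 252 genes higher with the empty vector, 151 were also higher in the library labelled OE than in shDCBLD2 and 15 were lower. Of the 304 genes lower with the empty vector, 139 were higher there and 46 were lower. Both sets thus held more genes high in the library labelled OE than the background, which itself rose with GC content, from 3.58% in the lowest of 5 groups of genes to 31.0% in the highest. In the lowest GC group 5 of 18 genes higher with the empty vector and 12 of 48 lower ones were high in that library, and in the highest group 73 of 98 and 28 of 39. Weakly expressed genes as a whole did too, with 873 higher and 304 lower among the 2793 genes lowest in mean CPM, the first of 5 groups of like size, and that library alone carried CDKN2A. The part of expression level, GC content and that library in these counts was not tested. For 140 of the 304 lower genes, the library labelled OE was nearer to sc and shDCBLD2 nearer to the empty vector on a log scale, and 62 showed the opposite. These are 46.1% and 20.4%, against 19.5% and 45.5% of all 8009 genes that were below sc with the empty vector. For 162 of the 252 higher genes the library labelled OE was nearer to the empty vector and shDCBLD2 nearer to sc, and 16 showed the opposite. These are 64.3% and 6.35%, against 44.6% and 19.4% of all 5934 genes that were above sc. TXNIP, an inhibitor of thioredoxin, was an extreme case among the higher genes, with 90 counts with the empty vector, 28 in sc, 533 in the library labelled OE and 1 in shDCBLD2. INHBA and UGT1A8 ran the other way, with UGT1A8 at 15, 66, 4 and 71 counts in the same order.

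Both GC content and length of genes moved with the ratio. With genes split into 5 groups of like size by exonic GC content, the median log2 ratio ran from −0.20 in the lowest group to 0.14 in the highest, and the count of higher genes from 18 to 98. Over 5 groups by exonic length it ran from 0.14 in the shortest to −0.28 in the longest. Higher genes had a median GC content of 56.8% and 2867 exonic bases, lower genes 48.5% and 4846, and all genes 49.1% and 4590. With each gene set against genes of like GC content and length, 213 genes were higher and 267 lower, of which 168 and 230 were among those above. The brush border list had a median GC content of 50.4% and a centred median of −2.11, against −2.13 before, and the centred median of the metallothioneins was 0.98. The ribosomal protein median was 0.34 after centring. The part of GC content and length in the smaller ratios was not tested further.

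**Figure D4:**
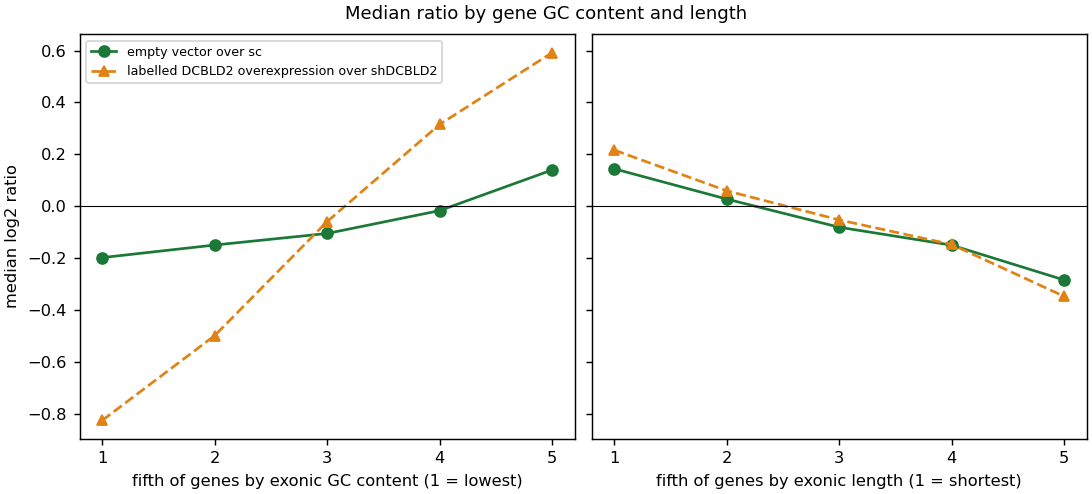
Median log2 ratio (y axis) in 5 groups of genes by exonic GC content (left) and exonic length (right), for the empty vector over sc (green) and for the library labelled OE over shDCBLD2 (orange, dashed). The green line climbs from −0.20 to 0.14 with GC content and descends from 0.14 to −0.28 with length, and the orange line is steeper with GC content, from −0.83 to 0.59.

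Called genes lay on every autosome with few clusters. Autosome medians lay between −0.14 and 0.13, and the highest was that of chromosome 19, known to be GC-rich, with 35 higher and 19 lower of 976 genes, and a centred median of 0.05. Along the chromosomes, 524 windows of 50 neighbouring genes had medians between −0.32 and 0.31. Adjacent called genes of 1 direction formed 25 runs with 58 genes, of which 5 runs had at least 3 genes: the protocadherin alpha, metallothionein, CEACAM, UGT1A and fibrinogen clusters described above. Pairs included MUC5AC with MUC5B, PI3 with SLPI, KCNJ16 with KCNJ2, the inter-alpha-trypsin inhibitor chains ITIH5 with ITIH2, and FRAT1 with FRAT2. By gene class, antisense genes were called higher in 22 and lower in 11 of 418 (5.26% and 2.63%). For lincRNAs it was 15 and 10 of 310 (4.84% and 3.23%), and for protein-coding genes 196 and 248 of 12364 (1.59% and 2.01%). The classes differed in level, with a median of the mean CPM of 2.29, 2.50 and 24.3 in the same order. Of all genes in the lowest of 5 groups by mean CPM, 5.94% were called higher and 6.62% lower. The part of expression level in these shares was not tested. Whether reads were counted by strand is not given in the sources used here, so antisense genes and their partners cannot be told apart.

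Promoter motifs were compared with the 9705 promoters of genes past the filter. TGCNCNC was present in 57.1% of 147 promoters of higher genes, 57.5% of 193 of lower genes and 63.9% of all 9705. GTTAAT was present in 8.81% of the promoters of lower genes, 2.04% of those of higher genes and 3.42% of all, and in 3 of 12 promoters of the lower brush border genes. TATAAA was present in 8.29% of lower, 6.12% of higher and 5.03% of all promoters. CGCGCG, a run of CpG, was present in 23.3% of lower, 19.7% of higher and 28.9% of all. The letters of an HNF4 site were found in 1 of 193 promoters of lower genes and 1 of 147 of higher genes. They were found in 24 of all 9705 and in 0 of the 12 brush border promoters. Not every motif counted is printed. The promoters of lower genes were less GC-rich, with a median of 61.3% against 65.7% for all and 67.3% for higher genes. For the 12 promoters of lower brush border genes the median was 46.3%. The part of GC content in the motif shares was not tested. A match is a stretch of letters and not a bound site.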

How the data were processed

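Poly(A) RNA of 4 lines described as A549 was sequenced, 1 library each. Raw read counts of 57905 genes were used as the authors deposited them, with no normalization. The deposited FPKM values equal the counts divided by the exonic size in kilobases and by the library total (scaled to 1000000) for 100% of values within 0.0051, and both FPKM and the exonic sizes (another deposited column) served for description only. The aligner, counting program and strand setting are not given in the sources used here, and the only build in the submitters' processing notes is mm9, a mouse build, although the genes are human.

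CPM and log2 ratios (prior count 2) were computed from the counts with Python 3.11.15, numpy 2.4.6, scipy 1.17.1 and pandas 2.3.3, and plotted with matplotlib 3.10.9. A gene was called where the ratio was at least 2-fold and its exact 95% Clopper-Pearson interval excluded no change, and a count of 0 was set against a floor of 3 counts. Intervals and floors cover counting error only. With 1 library a side no test, p-value or replicate spread exists. Scaling factors for alternatives came from edgeR 4.0.16 and DESeq2 1.42.0 in R 4.3.3. GC content and gene class came from GENCODE 29 by gene identifier (90.4% matched). Promoters were RefSeq windows on GRCh38.p14.

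The genes and lists were chosen with earlier results of these data known. The CEACAM and brush border lists and the centring on GC content and length (50 bins) were chosen after values had been seen. Genes named are the 15 called genes with the highest lower bound and the 15 with the lowest upper bound of the interval, the 8 largest gains and 8 largest losses in CPM, the 2 highest and 2 lowest called members of each list, and DCBLD2; not all are printed, and further genes in the text were picked with their values in view. Some genes are not reported here.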

Additional observations from a re-analysis of the deposited data

How the results depend on the processing

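The main counts were 252 genes higher and 304 lower with the empty vector. They depended on the filter and the threshold: 520 and 579 genes with no expression filter, 78 and 103 with a mean CPM of at least 5, 798 and 1190 at 1.5-fold, 9 and 46 at 4-fold, and 104 and 104 without genes that overlap another gene. Under TMM factors, DESeq2 size factors and upper quartile scaling they were 306 and 265, 307 and 264, and 319 and 261, and the median of all genes moved from −0.07 to between −0.01 and 0.00, so the split turned from more lower to more higher genes. Prior counts of 0.5 and 5, sc drawn down to the total of the empty vector library, protein-coding genes alone, the mean of the 2 control libraries in the filter and centring on GC content and length kept both counts within 1.5 times. The median of the HOX genes turned from 0.25 to −0.17 without overlapping genes. Of 649 values of 93 called named genes under alternatives, 0 changed sign, and no test was involved. Called genes start at 2-fold or more, so a change of sign was unlikely under any alternative. Calls did change: under TMM factors 265 of the 304 lower genes and all 252 higher genes stayed called. No paired analysis was possible because each line gave 1 library, and leaving out a library was not possible for the same reason. Depth limits the weak genes: the interval of OR51E1, with 1 count against 100, ran from −11.93 to −4.10 on the log2 scale.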

Other observations

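The following genes belong to no list above and were picked after their values had been seen, from the most highly counted called genes. Among the higher ones, creatine kinase B (CKB) had 2219 counts with the empty vector, 1079 in sc, 12167 in the library labelled DCBLD2 overexpression and 1158 in shDCBLD2. MFGE8, a secreted protein that bridges apoptotic cells to phagocytes, had 6440 against 3233 counts, with 3917 and 5061 in the other libraries. ISYNA1, which makes inositol phosphate from glucose phosphate, had 2258 against 1048, with 3015 and 696. The calcium channel subunits CACNG6 and CACNG7 had 1495 against 621 and 1337 against 671.

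Among the lower ones were large regulators of transcription and RNA. The acetyltransferases EP300 and KAT6A had 640 against 1442 and 394 against 821 counts, the corepressor SPEN 586 against 1289 and the RNA surveillance kinase SMG1 722 against 1508. For EP300, SPEN, KAT6A and SMG1 the shDCBLD2 library was on the side of sc, with 1175, 1432, 758 and 1645 counts. NAMPT, the rate-limiting enzyme of NAD salvage, had 3009 against 6215, with 1938 and 5986 in the other libraries. The chemokine scavenger ACKR3 had 398 against 1301, with 92 and 2529. SMG1 has pseudogene copies, and how their reads were assigned is not given. The ratios of EP300, SPEN, KAT6A, SMG1 and NAMPT were close to the 2-fold threshold, where calls move with the scaling. Genes in the longest of 5 groups by exonic length had a median log2 ratio of −0.28. The part of scaling and gene length in these calls was not tested.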
